A study of Mus musculus with 27 samples.

Results

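Synaptic vesicle and exocytosis genes were examined across 27 mouse prostate tumours. The set holds 10 genes: Syp, Snap25, Syt1, Stx1a, Vamp2, Rab3a, Rab3c, Sv2a, Stmn2 and Kif5a. They were taken by name from the array's gene table, and all 10 were found among 22180 named genes. Each tumour carries its own animal number, and all animals were Tg+ F2 males, bred from Tg- sires and Tg+ dams. Their genome was a mix of PWK/PhJ and C57BL/6-Tg(TRAMP)8247Ng/J. As background, TRAMP mice express the SV40 early region from the androgen-responsive probasin promoter and PWK/PhJ is a wild-derived strain. Collection was set for 30 weeks, or earlier where humane limits were met, and the labels give no age for single animals. The labels form 1 group with no wild-type, untreated or transgene-negative sample, so the arrays hold variation among tumours and no contrast between conditions. Tumours are named here by animal number, such as P471.

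Regulated exocytosis releases transmitters and peptide hormones from vesicles when calcium enters a cell. The vesicle protein Vamp2 zips together with Stx1a and Snap25 in the target membrane to form the SNARE complex that drives fusion, and Syt1 is the calcium sensor that triggers it. Syp and Sv2a are membrane proteins of the vesicle. Rab3a and Rab3c are small GTPases that sit on vesicles before release. Stmn2 binds tubulin in growing neurites, and Kif5a is a neuronal kinesin heavy chain that carries cargo along microtubules. In the prostate, synaptophysin (the product of Syp) is a routine marker of neuroendocrine cells and of neuroendocrine tumours.

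Promoter sequence was at hand for 6 of the 10 genes (Syp, Sv2a, Syt1, Stx1a, Rab3a and Rab3c) in RefSeq's table for GRCm38.p6. The 250 bases before the annotated start are shown for 3 genes that were low in the same 4 tumours (Syp, Sv2a and Syt1) and for Stx1a, which was not. Capitals mark the E-box CAGCTG, a sequence bound by neurogenic basic helix-loop-helix factors, and the GC box GGGCGG or its reverse complement. The windows lie at chrX:7638330-7638579 (+) for Syp, chr3:96180977-96181226 (+) for Sv2a, chr10:109010976-109011225 (-) for Syt1 and chr5:135023232-135023481 (+) for Stx1a, each upstream of the first exon.
Syp: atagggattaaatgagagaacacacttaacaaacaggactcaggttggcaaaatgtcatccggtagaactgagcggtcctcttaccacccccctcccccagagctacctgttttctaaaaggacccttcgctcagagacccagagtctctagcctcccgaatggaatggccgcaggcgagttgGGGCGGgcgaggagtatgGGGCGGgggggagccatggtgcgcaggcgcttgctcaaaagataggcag
Sv2a: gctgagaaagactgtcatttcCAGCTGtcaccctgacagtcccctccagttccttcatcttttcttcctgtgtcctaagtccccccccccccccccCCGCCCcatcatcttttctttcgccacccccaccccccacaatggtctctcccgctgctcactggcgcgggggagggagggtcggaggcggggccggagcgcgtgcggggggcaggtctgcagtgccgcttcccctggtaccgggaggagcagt
Syt1: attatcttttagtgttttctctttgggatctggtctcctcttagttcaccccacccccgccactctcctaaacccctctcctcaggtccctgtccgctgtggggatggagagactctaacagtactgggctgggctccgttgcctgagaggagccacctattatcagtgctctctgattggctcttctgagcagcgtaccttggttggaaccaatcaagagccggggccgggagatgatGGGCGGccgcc
Stx1a: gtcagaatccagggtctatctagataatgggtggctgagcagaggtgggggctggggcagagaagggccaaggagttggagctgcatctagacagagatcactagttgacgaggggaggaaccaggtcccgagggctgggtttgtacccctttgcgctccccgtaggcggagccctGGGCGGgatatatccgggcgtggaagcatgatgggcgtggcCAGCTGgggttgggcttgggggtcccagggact
The E-box was present before 5 of the 6 genes (all but Syp) and in 5 of their 8 windows, against 13% of all 32851 windows of this length, on either strand. For Syt1 it lay in the window of a second start that is not shown, 31 bases before it. The GC box was present before all 6 genes and in 6 of 8 windows, against 32.7% of all windows. The left part of the RE1 element, TTCAGCACC, was found in none of the 8 windows (0.301% of all windows), nor was the cAMP response element TGACGTCA (1.55%). These matches describe the letters only. Stx1a, whose level followed another order, held both of the marked motifs.

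The files hold log2 expression values per probe set. The array medians lay between 5.67 and 5.82, and the correlation between 2 arrays over all genes ranged from 0.868 to 0.987. The median of all values was 5.75, below which a level is close to background, so folds from such a level are lower bounds. A granin and prohormone processing score, the mean centred log2 value of 10 genes such as Chga, Chgb and Scg3 with no gene of the set in it, was lowest in P471 (-2.51), followed by P966 (-2.11), P425 (-1.92) and P1276 (-1.64). It lay between -0.18 (P509) and 1.47 (P803) in the other 23, and a Gaussian mixture placed the 4 low tumours in a cluster of their own. The score of 12 luminal epithelium genes such as Krt8 and Cdh1, made the same way, was 2.42 to 3.05 in those 4 tumours and 1.98 to 2.22 in P1469, P803, P219 and P569. In P502 it was 0.57, and in the 18 remaining tumours it was below 0. Fewer cells of a type and less RNA per cell cannot be told apart in bulk tumours.

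The vesicle membrane genes Syp and Sv2a were expressed at a similar level in most tumours and much lower in the same 4. Syp was at 5.16 log2 in P471, 5.70 in P425, 5.73 in P966 and 6.18 in P1276, and between 7.41 (P1225) and 8.74 (P609) in the other 23, with a median of 8.09 there. The 4 tumours and the 23 did not overlap, and the range over 27 was at least 11.97-fold (SD 0.92 log2, n = 27). Sv2a was at 6.75 in P1276, 6.16 in P425, 6.07 in P966 and 5.11 in P471, against 8.17 (P219) to 9.68 (P609) in the others. Its range was at least 23.6-fold, again with no overlap (SD 1.11). A second probe set annotated to Syp stayed near background in all tumours (mean 4.30, SD 0.14) and was not used.

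The calcium sensor gene Syt1 and the SNARE gene Snap25 were low in the same 4 tumours. Syt1 was at 6.18 in P471, 7.28 in P425, 8.03 in P966 and 8.29 in P1276, and between 10.07 (P235) and 11.59 (P1218) in the other 23, a range of 42.6-fold (SD 1.37). Snap25 was at 5.35 in P471, 7.47 in P966, 7.51 in P1276 and 8.29 in P425, and between 9.39 (P474) and 11.27 (P235) elsewhere, a range of at least 60.7-fold (SD 1.32). In both genes P471 lay more than 1 log2 unit below the next tumour.

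**Figure D1:**
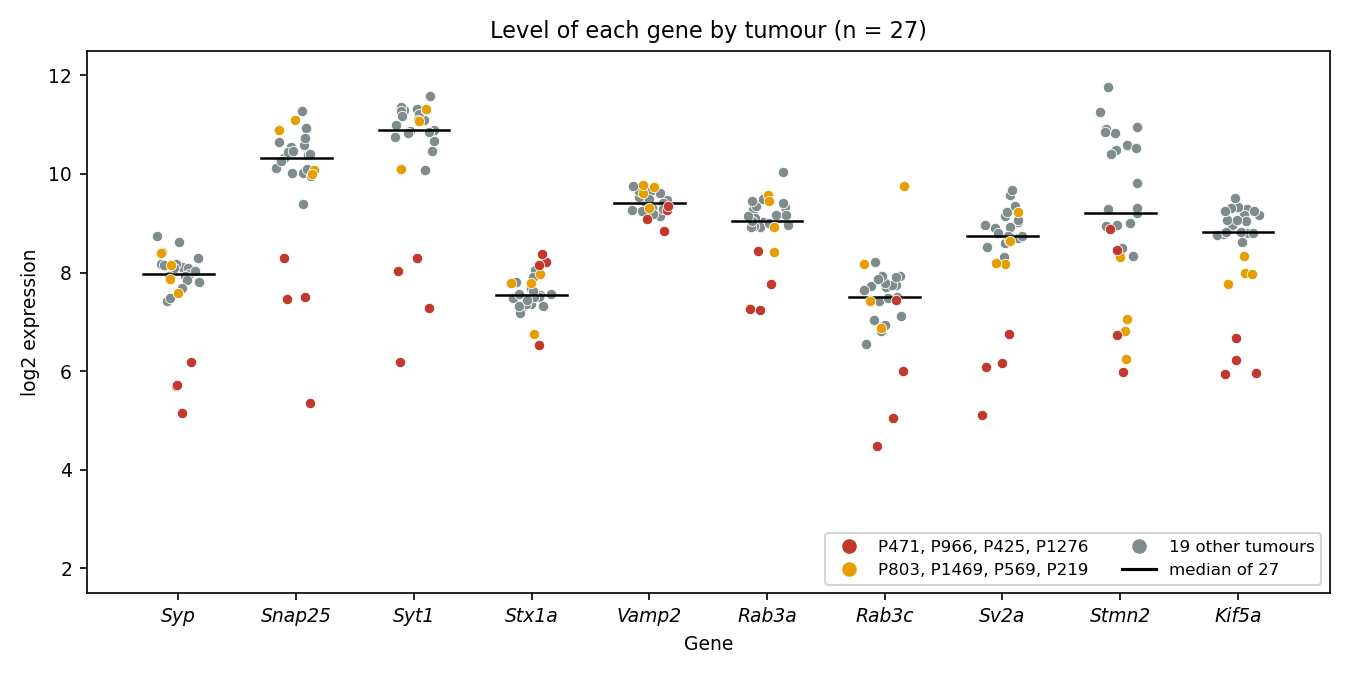
Level of each gene (log2 expression, y axis) in 27 tumours, 1 point per tumour, with a black line at the median of 27. For Syp, Snap25, Syt1, Sv2a and Kif5a the red points (P471, P966, P425 and P1276) lie below all others, while for Stx1a 3 of the 4 are the highest, and for Stmn2 the orange points of P803, P569 and P1469 lie among the red ones.

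For the other SNARE genes, Stx1a and Vamp2, the 4 tumours did not all lie below the other 23. Stx1a was highest in 3 of the 4 tumours, at 8.38 in P966, 8.21 in P1276 and 8.15 in P471. In the 4th, P425, it was lowest of all at 6.53, followed by P219 at 6.75. The remaining 22 tumours lay between 7.18 (P217) and 8.04 (P311), and the whole range was 3.60-fold (SD 0.41). Vamp2, which many cell types use for vesicle fusion, had the narrowest spread of the set, from 8.84 in P471 to 9.78 in P569, or 1.92-fold (SD 0.23). P966 was next lowest at 9.09, but P1276 (9.28) and P425 (9.34) lay inside the range of the 23. All 4 were below the median of 9.47 in the 23, by a small margin in P1276 and P425. Ranked by SD among all 22180 genes, Vamp2 stood at percentile 28.9 and Stx1a at 67.3, while the 8 others stood between 85.3 (Rab3a) and 99.5 (Stmn2).

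The Rab GTPase genes were split. Rab3a was at 7.25 in P471, 7.27 in P1276 and 7.76 in P966, below the 23 (8.42 in P219 to 10.03 in P609). In P425 it was at 8.43, just inside that range. Rab3c was at 4.48 in P471, 5.05 in P425 and 6.01 in P1276, all below the 23 (6.55 in P217 to 9.76 in P803, median 7.70). In P966 it was at 7.45, inside that range. P803 stood 1.56 log2 above the next tumour, P311 at 8.21. A second probe set annotated to Rab3c had a narrow spread (mean 7.04, SD 0.29) and was highest in P757. It correlated with the one used at r = 0.318 over the 23 tumours, so values of Rab3c depend on the probe set.

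The cytoskeletal genes Kif5a and Stmn2 varied in additional tumours. Kif5a was at 5.93 in P471, 5.96 in P425, 6.23 in P966 and 6.68 in P1276, below all others, and its next lowest values were those of P569 (7.76), P803 (7.96), P1469 (7.98) and P219 (8.33), under a median of 8.97 in the 23. Stmn2 ranged 54.6-fold, from 5.99 in P471 to 11.76 in P912 (SD 1.61). It was at 6.73 in P966, yet at 8.46 in P425 and 8.89 in P1276, inside the range of the other tumours. Its other low values were those of P803 (6.25), P569 (6.81) and P1469 (7.06), where Syp was at 8.15, 7.87 and 8.40. These 3 had granin scores of 1.47, 0.54 and 0.58 and, like P219 (Stmn2 at 8.32), high luminal epithelium scores. Within the 18 tumours of low luminal score, the slope of Stmn2 on that score was -0.52 ± 0.20 log2 per SD and did not pass (limma adjusted p = 0.61). Over the 23 tumours Stmn2 still ranged 45.3-fold (SD 1.49, percentile 99.5 among all genes), where the SD of the other 9 genes was 0.20 (Vamp2) to 0.65 (Rab3c).

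**Figure D2:**
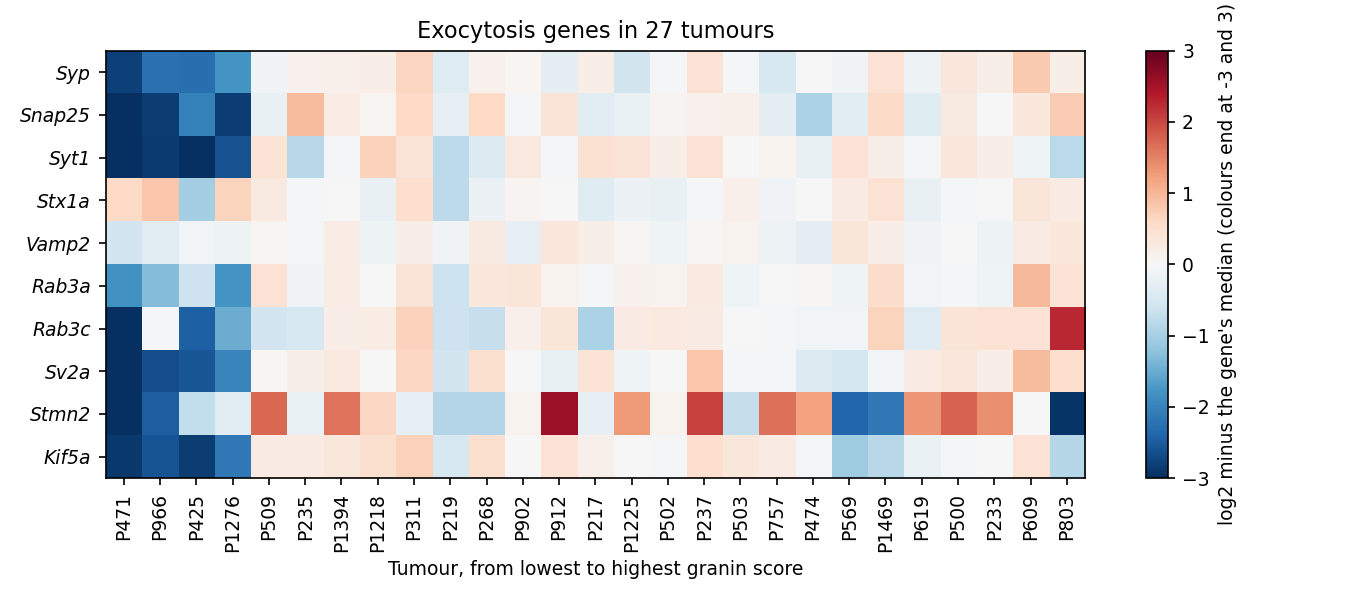
Each cell is the log2 level of a gene (rows) in a tumour (columns) minus that gene's median over 27 tumours, from blue (lower) to red (higher), with colours ending at -3 and 3, with tumours ordered by granin score. In the 4 columns at the left every gene but Stx1a lies below its median, in some cells only faintly. Stx1a is red in 3 of these columns, and Stmn2 is blue at P569, P1469 and P803 far to the right.

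Counted over the set, P471 held the lowest value for 9 of 10 genes, all but Stx1a. It was among the 4 lowest tumours for 9 genes, P966 for 8, and P425 and P1276 for 7 each. The same counts were not made over all 22180 genes, so they do not by themselves set the 10 genes apart. The 4 tumours were not alike in other respects. P425 had a mitosis score of -1.83, where the next lowest tumour had -0.35, and a score of androgen-responsive and secretory genes of 4.10, against -0.37 to -0.09 in the other 3. The stroma score was 0.46 to 1.42 in the 4, above the median of -0.20 in the 23 and within their range, and its part in the levels of the 4 was not tested. For 5 of the 10 genes (Syp, Snap25, Syt1, Sv2a and Kif5a) all 4 tumours lay below all 23 others. Of all 22180 genes 630, or 2.84%, did so, and 354 (1.60%) had all 4 above, among them no gene of the set. For 9 of the 10 genes, all but Stx1a, the 4 tumours lay below the median of the 23, beside 19.4% of all genes. Seen from the 23 tumours alone the set was less variable: its median SD was 0.41 log2 there against 1.03 over 27, and the median over all genes was 0.27 and 0.30.

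Markers of nerve tissue were read beside these levels, since exocytosis genes are also expressed in nerves. For 6 measured Schwann cell genes the list's mean level ranged from 5.43 to 6.62, highest in P425, and Sox10, which defines the lineage, lay between 5.51 and 6.26. S100b ranged from 3.70 to 6.53, also highest in P425. The 8 measured peripheral neuron genes had a mean level between 5.34 and 7.20, highest in P500. Dbh stayed between 4.84 and 6.07 and Chat between 4.48 and 5.13, close to background in all tumours, whereas Prph reached 10.12 (P500), Nefl 11.04 (P235) and Th 9.91 (P757). The peripheral neuron score was low in the same 4 tumours as the exocytosis genes. It was -1.19 in P471, -0.78 in P966, -0.72 in P1276 and -0.65 in P425, with P803 (-0.82) the only other tumour this low, against a median of 0.25 in the 23. The Schwann cell score was higher in the 4 (0.15 to 0.81) than the median of the 23 (-0.09). No single gene of these lists had all 4 tumours lowest. The part of nerve tissue in the levels was not tested.

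Of 10 measured SNARE paralogues that serve fusion outside the neuronal set, 4 had all 4 tumours above the median of the other 23 (Snap23, Stx3, Stx4a and Vamp8) and 3 had all 4 below it (Snap47, Stx2 and Vamp4). Over all genes 20.6% had all 4 above and 19.4% all 4 below. Snap23, the widely expressed relative of Snap25, was at 9.25 in P1276, 9.29 in P425, 9.49 in P966 and 9.51 in P471, against a median of 7.85 in the other 23. Only P219 (9.56) was above these 4. Stx3, a syntaxin of apical epithelial membranes, was at 7.68 in P471 and at 8.71 to 8.95 in the other 3, against a median of 6.19. Stx3 was also high in P219 (8.78) and P569 (8.58), and P1469 (7.61) and P803 (7.34) were close to P471. Vamp8, used in secretion by glands, was at 8.37 in P471, 8.44 in P966, 9.40 in P1276 and 10.02 in P425, against a median of 6.60. It was also high in P219 (9.09), P569 (8.52), P803 (8.41) and P1469 (8.26). Snap47 was at 8.34 to 8.88 in the 4 tumours against 8.89, Stx2 at 7.04 to 8.11 against 8.49, and Vamp4 at 5.46 to 6.59 against 7.07. None of the 10 had all 4 tumours outside the range of the 23 on 1 side.

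Among relatives of the transport and cytoskeletal genes the picture was divided by gene. Kif5c, another neuronal kinesin heavy chain, was at 6.81 in P1276, 6.22 in P425, 5.89 in P966 and 4.62 in P471, below the 23 (from 8.10 in P803), as was Stmn3 (6.07 to 8.50, against 9.49 or more). Kif5b, the ubiquitous heavy chain, was highest in P471 (11.36), P1276 (11.07) and P966 (10.96), the last close to P1225 (10.95). In P425 it was at 10.61, below the median of 10.69 in the 23. Stmn4 resembled Stmn2 in P1469 (4.18), P569 (4.63) and P803 (5.08), against a median of 7.43 in the 23. It was also low in all 4 tumours, including P425 (4.71) and P1276 (4.53), where Stmn2 was at 8.46 and 8.89.

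**Figure D3:**
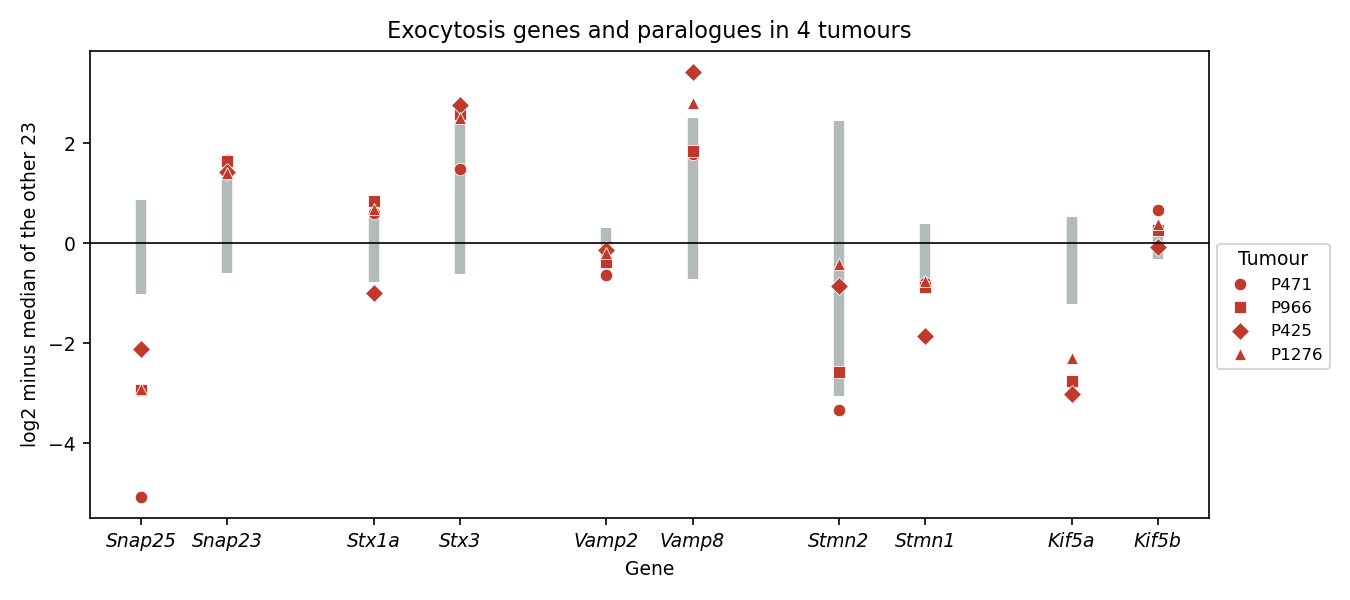
For 5 genes of the set, the gene and a paralogue (x axis), as log2 level minus the gene's median over the 23 other tumours (y axis); the grey bar spans those 23 and the red symbols are P471, P966, P425 and P1276. Snap25 and Kif5a fall below the bar in all 4 tumours, while Snap23, Stx3 and Vamp8 lie toward or above its top. The paralogues shown were chosen after values were seen. Among those not shown, Snap47, Stx2 and Vamp4 had all 4 tumours below the median of the 23.

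The wider exocytosis machinery was read from lists of further genes. All 4 tumours lay below the 23 for 9 of 26 priming and active zone genes (Unc13a, Cplx1, Cplx2, Rims2, Rims3, Napb, Bsn, Erc2 and Ppfia3), 4 of 10 vesicle recycling genes (Amph, Synj1, Snap91 and Ap3b2), 4 of 14 other synaptotagmins (Syt2, Syt11, Syt14 and Syt16), 3 of 11 kinesin and stathmin genes (Kif5c, Kif3c and Stmn3) and 2 of 20 vesicle protein genes (Syn1 and Syngr3), beside the 2.84% over all genes. By SD the most variable were Syt4 (1.73, highest in P474) and Syt13 (1.302) among synaptotagmins, Snap91 (1.42) and Amph (1.35), both endocytic adaptors, in recycling, and Kif5c (1.35) and Kif21a (1.28) among kinesins. Sv2b (1.35) and Sv2c (1.301) led the vesicle proteins, Cplx1 (1.25), a complexin that clamps the SNARE complex, and Sytl5 (1.13) the priming list, and Vamp8 (1.18) and Stx3 (1.11) the SNARE paralogues.

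Relations between genes were then measured within the 23 tumours, so that the gap between the 4 and the rest does not enter. These 23 still hold 5 tumours that a Gaussian mixture placed apart on the luminal epithelium score (P1469, P219, P502, P569 and P803). Only relations with that score left them out. All genes were fitted on a score or on the level of 1 gene with limma, and p was adjusted over all genes tested. Rab3c rose with the granin score by 0.43 ± 0.10 log2 per SD (SE, n = 23, limma adjusted p = 0.0492). It was the 1 gene of 10 that passed, beside 0.532% of 22170 genes in either direction and 0.374% rising. Kif5a (-0.26 ± 0.08, adjusted p = 0.13) and Stmn2 (-0.55 ± 0.28, adjusted p = 0.39) had negative slopes that did not pass. The other 7 slopes lay between -0.10 (Syt1) and 0.08 (Sv2a), all with adjusted p of 0.63 or more. The call for Rab3c rests on P803, the tumour highest in both: without it the slope was 0.16 (adjusted p = 0.92), and the call was lost in 14 of 23 fits that left out 1 tumour (P235, P219, P803, P1469, P902, P1225, P912, P237, P1218, P757, P509, P502, P268 and P503). With the mean of its 2 probe sets it was 0.25 (adjusted p = 0.071).

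On a score of 12 neuroendocrine transcription factor genes (Insm1, Foxa2, Hes6 and others), Rab3c rose by 0.40 ± 0.11 (adjusted p = 0.030), again as 1 of 10 genes and beside 8.07% of all genes (5.28% rising and 2.80% falling). The call was lost without P235, P219, P803, P1469 or P268 (slope 0.24 and adjusted p = 0.090 without P803). Stx1a had a slope of 0.15 ± 0.05 (adjusted p = 0.079). For Syp, Snap25, Vamp2 and Sv2a the slopes lay between -0.02 and 0.06.

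On the mitosis score, built from 15 genes such as Bub1 and Top2a, Stmn2 rose by 0.86 ± 0.25 log2 per SD (adjusted p = 0.030), beside 9.56% of all genes (5.61% rising and 3.96% falling). Without P803 the slope was 0.64 (adjusted p = 0.13), and the call was also lost without P1469, P237 or P500. P803, P569, P1469 and P219, with high luminal epithelium scores, had the lowest Stmn2 values of the 23. Their mitosis scores were -0.347, -0.041, -0.255 and -0.345, against a median of 0.097. P502, of the same luminal cluster, had 0.316, with Stmn2 at 9.29. How far the gap between luminal clusters enters this slope was not tested. Syt1 had a slope of 0.22 ± 0.08 that did not pass (adjusted p = 0.060) and passed with arrays centred on their median (0.29, adjusted p = 0.012). Syp had 0.02 ± 0.07, Snap25 -0.10 ± 0.09 and Sv2a 0.10 ± 0.08. By correlation the same 3 relations passed, with r = 0.667, 0.616 and 0.578, and none of the 50 between a gene and a score passed by rho.

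No gene of the set passed on the luminal epithelium score (18 tumours of its lower cluster; 0.0135% of all genes passed, 0.00902% rising) or on the stroma score (23 tumours; 3.43% passed, 3.12% rising), by limma. At an unadjusted p under 0.05 the counts were 1 of 10 (luminal, beside 6.81% of all genes) and 2 of 10 (stroma, beside 3333 of 22169 genes). All 10 slopes on the stroma score were below 0, with a median of -0.13 against -0.02 over all genes, from -0.003 (Snap25) to -0.46 ± 0.29 (Stmn2). Most genes shared this sign: only 9013 of 22169 slopes over all genes were above 0.

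**Figure D4:**
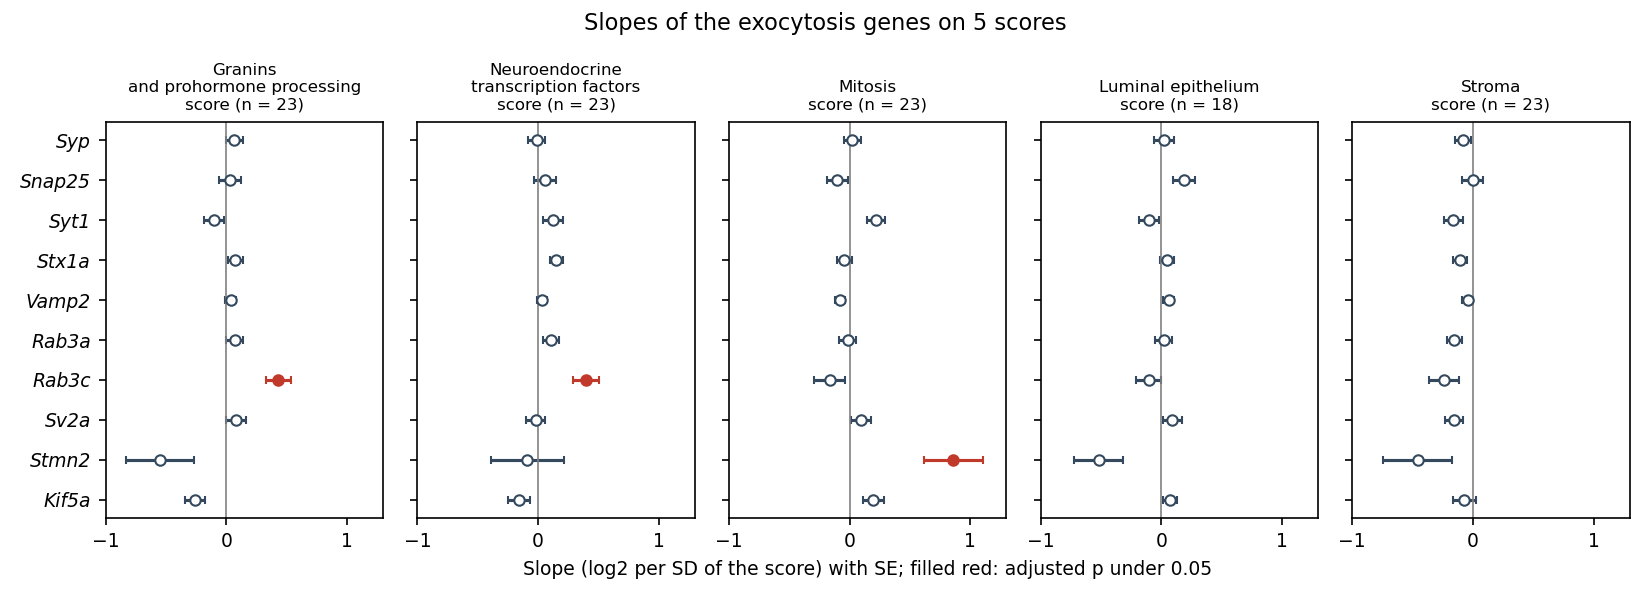
Slope of each gene on 5 scores (x axis, log2 per SD of the score, with SE), 23 tumours in each panel except 18 for luminal epithelium; filled red points passed at an adjusted p under 0.05 over all genes. Rab3c passed on the granin score (0.43) and the transcription factor score (0.40) and Stmn2 on the mitosis score (0.86), and the other points lie nearer 0 or have wide errors.

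In the 6 wider exocytosis lists, which hold 91 measured genes, calls were counted on each score. On the granin score Rab27a (0.52 ± 0.12), a GTPase of secretory granules, and Syt3 (0.22 ± 0.05) rose, 2.20% of the list genes beside 0.532% of all genes. The steepest slopes, of Syt4 (1.16 ± 0.27, adjusted p = 0.050) and Sv2c (0.84 ± 0.23), did not pass. On the transcription factor score Rab3b (0.45 ± 0.13) and Cplx2 (0.36 ± 0.08) rose and Stmn4 (-0.58 ± 0.18) fell, 3.30% beside 8.07%. On the stroma score Rab27b (0.49 ± 0.13), Snap23 (0.41 ± 0.09) and Sytl4 (0.15 ± 0.04) rose, 3.30% beside 3.43%, and on the luminal score none passed. On the mitosis score 5 rose (Stmn1, Stmn4, Erc1, Itsn1 and Vamp4) and 5 fell (Slc18a1, Vamp8, Rab3d, Syt3 and Snap47), with Slc18a1, a vesicular monoamine transporter, at -0.78 ± 0.20 and Stmn4 at 0.60 ± 0.17. These were 10 of 91 list genes, close to the 9.56% of all genes. These genes were named after their values were seen. Rab27a (10.58), Syt3 (6.01), Rab3b (9.505) and Slc18a1 (9.08) were highest in P803, Cplx2 in P1469, and Rab27b and Snap23 in P219. P803 also had the highest granin score (1.47) and the lowest mitosis score (-0.347) of the tumours fitted. How far the calls of the list genes rest on P803 was not tested. Mean levels of Syt3 (5.21), Sytl4 (5.43), Slc18a1 (5.57) and Rab27b (5.70) were below 5.75 and so close to background. Their highest values were 6.01 (Syt3, P803), 6.74 (Sytl4, P425, which was not fitted), 9.08 (Slc18a1, P803) and 8.23 (Rab27b, P219). Slc18a1 and Rab27b were thus well above background in those tumours.

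Pairs of genes in the set were weakly related within the 23 tumours. The median Pearson r over 45 pairs was 0.26, from -0.385 (Vamp2 and Stmn2) to 0.719, and 33 were above 0. Syp and Sv2a had r = 0.719 (permutation p = 1e-04, adjusted over 95 relations 0.0095) and rho = 0.687 (permutation p = 0.00032, adjusted 0.0304), and r = 0.658 without P1225 and P609, the 2 tumours farthest from the median of Syp. Sv2a had a slope of 0.28 ± 0.06 on Syp, with adjusted p = 0.22 over all genes by limma, where no gene of 22179 passed on Syp (0% called; 1443 at an unadjusted p under 0.05).

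Stx1a and Rab3a also had r = 0.719 (permutation p = 0.00029, adjusted 0.0138), with rho = 0.538 (adjusted 0.215) and r = 0.581 without P219 and P311. Rab3a rose by 0.23 ± 0.05 per SD of Stx1a (limma adjusted p = 0.021 over all genes, beside 3.46% of genes called, 2.68% rising and 0.780% falling), and the call was lost without P219 (0.17, adjusted p = 0.061). With Rab3a as the predictor Stx1a did not pass (adjusted p = 0.15, beside 0.0271%, with 0.0180% rising and 0.00902% falling).

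Stmn2 and Kif5a had r = 0.621 (permutation p = 0.0015, adjusted 0.0353), rho = 0.361 (adjusted 0.308) and r = 0.350 without P569 and P803. Kif5a rose by 0.29 ± 0.08 per SD of Stmn2 (adjusted p = 0.022, beside 7.98%, with 3.61% rising and 4.37% falling) and Stmn2 by 0.92 ± 0.24 per SD of Kif5a (adjusted p = 0.013, beside 9.20%, with 4.58% rising). Both calls were lost without P803, P1469 or P569, the tumours where the 2 genes were low together. How far the gap between luminal clusters enters this relation was not tested. Syp with Rab3a (r = 0.597, permutation p = 0.0028, adjusted 0.0383) and Rab3a with Sv2a (r = 0.614, permutation p = 0.0019, adjusted 0.0353) complete the 5 pairs that passed by r. For Syp and Rab3a rho was 0.375 (permutation test, adjusted 0.3), and r was 0.521 without P1225 and P609. For Rab3a and Sv2a rho was 0.428 (permutation test, adjusted 0.241), and r was 0.327 without P219 and P609. Only Syp with Sv2a passed by rho. Snap25 and Syt1, partners in triggered release, had r = -0.329 (permutation p = 0.13, adjusted 0.31).

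**Figure D5:**
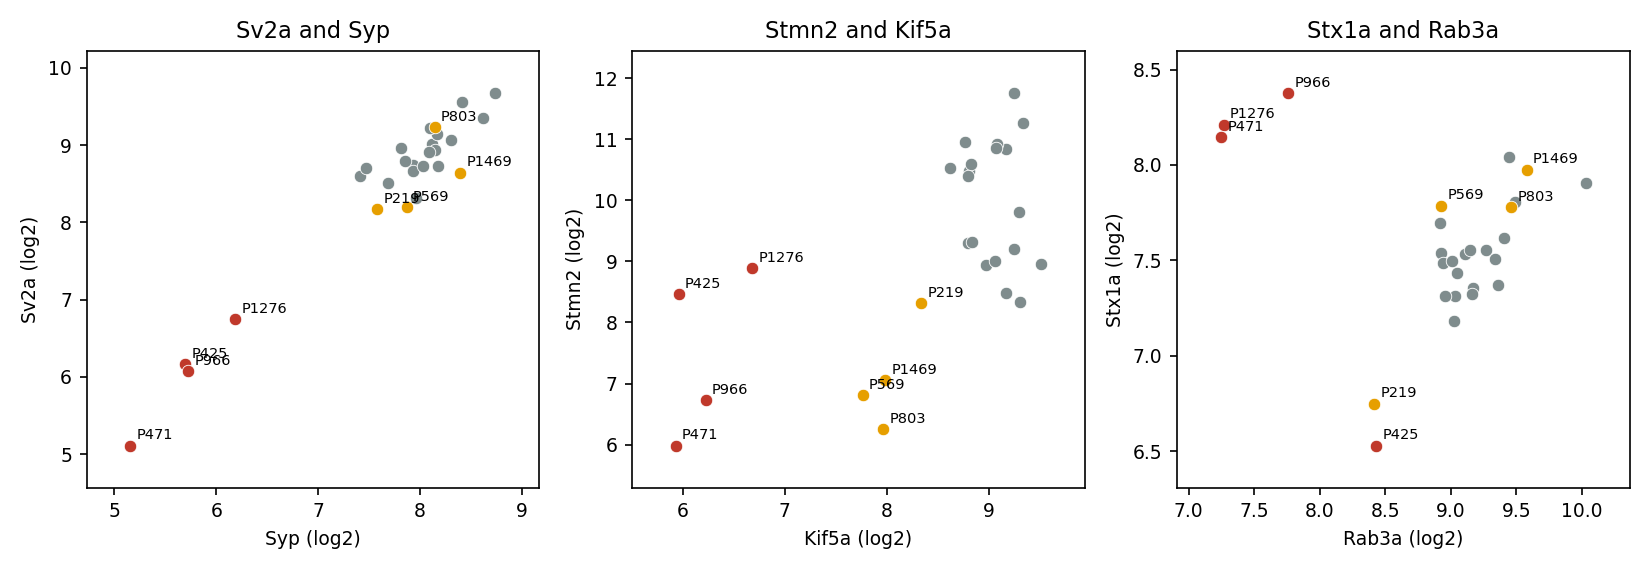
Each point is a tumour, with axes in log2 expression: Sv2a against Syp, Stmn2 against Kif5a, and Stx1a against Rab3a. P471, P966, P425 and P1276 (red) were left out of the relations; in the middle panel P803, P1469 and P569 (orange) lie at the low end of the 23 others, and in the right panel P471, P966 and P1276 have high Stx1a and low Rab3a.

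For each gene the 3 genes with the most similar pattern over the 23 tumours were listed by Pearson r, leaving out predicted genes with names such as Gm or Rik. For Rab3a they were Ppfia3 (r = 0.860), a liprin of the presynaptic active zone, Reep2 (0.850) and Aplp1 (0.791), and for Syp they were Nsf (0.806), the ATPase that takes SNARE complexes apart, Mpp2 (0.804) and Ajm1 (0.784). Kif5a was closest to Tagln3 (0.906), Apc2 (0.894) and Scarf2 (0.892). Stmn2 was closest to Mosmo (0.871), Twistnb (0.861) and Sncaip (0.842), which encodes a partner of alpha-synuclein. Stx1a was closest to Camk2n2 (0.875), an inhibitor of CaM kinase II, Spire2 (0.849) and Ccdc51 (0.833). For Sv2a they were Magee1 (0.870), Msantd4 (0.801) and Slc12a5 (0.788), the neuronal chloride exporter, for Rab3c Ppm1l (0.823), Mapk15 (0.818) and Garre1 (0.807), for Syt1 Gmnn (0.767), Sp3 (0.752) and Tubgcp6 (0.744), for Vamp2 Cttnbp2 (0.770), Mir1899 (0.746) and Klhl26 (0.742).

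Snap25 was closest to Ankef1 (r = 0.833), followed by Fbxl21 (0.784) and Pcyox1 (0.775). Ankef1 is the measured protein-coding gene next to Snap25 on chromosome 2 in RefSeq's order, with 0 genes between them. Syt1 likewise had r = 0.759 with its neighbour Gm5136 on chromosome 10. The other immediate neighbours of genes in the set had r between -0.426 (Pde4d, beside Rab3c) and 0.542 (Per1, beside Vamp2). Since 22180 genes were ranked over 23 tumours, the highest r of each gene is a description.

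The number of genes that followed a gene of the set also differed. By limma 2040 genes passed on Kif5a (9.20%), 1769 on Stmn2 (7.98%), 767 on Stx1a (3.46%), 101 on Rab3c (0.455%), 16 on Syt1 (0.0721%; 0.00902% rising and 0.0631% falling), 6 on Rab3a (0.0271%) and 1 on Sv2a (0.00451%). None passed on Syp, Snap25 or Vamp2, against 1443, 1656 and 2358 at an unadjusted p under 0.05. Single tumours moved these counts. On Rab3c 0 genes passed without P803, 312 without P569, and 62 to 65 without P1469, P609 or P268. On Stmn2 there were 538 without P803, 798 without P1469 and 835 without P569, and on Kif5a 1183, 1254 and 1106 without the same tumours. P803, P1469, P569 and P219 held the lowest values of both genes within the 23 tumours. There a Gaussian mixture on the kinesin and stathmin score placed the same tumours in a cluster of their own. How far this gap enters the counts on Stmn2 and Kif5a was not tested. On Stx1a there were 216 without P502, 296 without P1469, 303 without P268, 335 without P509, 354 without P609 and 476 without P803, and 35 with the stroma score as a covariate. On Rab3a there were 0 without P219 or P609, 2 without P1469 or P509 and 10 without P268. On Syt1 there were 186 without P803, 29 without P569, 6 without P235, 2 without P219 and 0 without any 1 of P233, P311, P902, P1225, P609, P912, P237, P500, P757, P509, P217, P268 or P503. On Sv2a there were 4 without P803 and 3 without P474, on Syp 3 without P1218 and 1 without P1469 or P474, and on Snap25 2 without P803 or P1469. These counts without 1 tumour were added after the data had been seen.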

How the data were processed

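Total RNA of snap-frozen tumours was labelled with biotin for 1-colour GeneChip arrays, 1 per tumour, per the labels' protocols. The authors deposited log2 values between 1.68 and 14.5 for 41345 rows and 27 arrays, made with Partek per the submitters' processing notes. The sources used here do not give which background correction, summarisation and normalization they applied, and a shift between arrays could move every slope. Arrays have no read depth, and their number limits the precision. The labels give 1 number per animal and no batch.

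Rows with 1 platform symbol (23521) were used; 1814 with several and 16010 unnamed rows were not. For the 1082 genes with more than 1 row, that with the highest mean was kept. A list's score was the mean of its centred log2 values. Clusters were called with mclust 6.1.1 (BIC gain over 6, Ashman's D over 2, at least 3 tumours). Fits used limma 3.58.1 in R 4.3.3 (lmFit, eBayes with trend), Benjamini-Hochberg over all genes, threshold 0.05, and were tested on simulated data. Correlations had two-sided tests of 100000 permutations. Named genes were all of the set, the 3 most similar to each, and per list the 2 with the largest SD or slope. Motifs, paralogues and counts against the 23 tumours were chosen after values were seen. The set and lists were chosen with earlier results of these data known. Alternatives changed normalization, centring, rows, filter, score, trend, covariate and tumours; leaving out each tumour in the fits on single genes was added after seeing the data.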

Additional observations from a re-analysis of the deposited data

How the results depend on the processing

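Within the 23 tumours, the count of genes of the set that passed on a score was 1 for granins, 1 for transcription factors, 1 for mitosis and 0 for luminal epithelium and stroma. On granins it was 0 with median-centred arrays, averaged probe sets, a score of scaled genes, or without P609 and P803. On transcription factors it was 2 with a score of scaled genes, and 0 with stroma as covariate or without P219 and P268. On mitosis it was 2 with median-centred arrays or without genes below the median level, and 0 without P219 and P803. Leaving out 1 tumour gave 0 to 1, 0 to 2, 0 to 2, 0 to 0 and 0 to 0. Over all 27 tumours, where slopes mix the clusters, the counts were 8, 7, 2, 7 and 5 in the same order. There Syt1 (1.18) and Kif5a (0.82) turned positive on granins, Syp (0.58), Sv2a (0.70) and Kif5a (0.56) on transcription factors, and Syp (-0.61), Snap25 (-0.76), Rab3a (-0.41), Sv2a (-0.80) and Kif5a (-0.92) turned negative on luminal epithelium. By construction this adds the 4 low tumours, and for luminal epithelium also P1469, P219, P502, P569 and P803.

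Counts of all genes that passed on a gene of the set over 27 tumours were 5255 (Syp), 4292 (Snap25), 5822 (Syt1), 580 (Vamp2), 4584 (Rab3a), 1718 (Rab3c), 5746 (Sv2a), 3299 (Stmn2) and 6762 (Kif5a). Within 23 tumours they were 147 (Syt1), 1562 (Stx1a) and 6 (Sv2a) with median-centred arrays, 11 (Rab3a) after quantile normalization and 282 (Rab3c) with averaged probe sets. With stroma as covariate they were 0 (Syt1), 35 (Stx1a), 0 (Rab3a), 12 (Rab3c) and 3 (Sv2a). Without 1 tumour the ranges were 0 to 3 (Syp), 0 to 2 (Snap25), 0 to 186 (Syt1), 216 to 1020 (Stx1a), 0 to 0 (Vamp2), 0 to 10 (Rab3a), 0 to 312 (Rab3c), 1 to 4 (Sv2a), 538 to 2279 (Stmn2) and 1106 to 2230 (Kif5a). Of 45 pairs 5 passed, 3 after quantile normalization, 1 without the 2 farthest tumours and 31 over 27 tumours. Of 50 relations with scores 3 passed, then 1, 0 and 32. The cause of these shifts was not tested. Averaging the 2 probe sets put Syp at 6.00 in place of 7.69. No paired analysis was possible because the labels hold 1 group. Levels near the median of all values (5.75) are close to background, which limits what the lowest values show.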
